A study of Mus musculus with 3 samples.

Results

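Accessible chromatin was examined at the loci of 4 genes that mark astrocytes, Gfap, Aqp4, Sox9 and Slc1a2, in the dentate gyrus of the mouse hippocampus. The members are the ATAC-seq regions inside 1 fixed mm9 window per gene, taken by position alone, with peaks of different animals joined where they overlapped by at least 1 bp. The windows held 33 regions, made of 63 peaks, out of 84529 regions in the whole series. ATAC-seq marks open DNA by the cuts of the transposase Tn5, and the authors deposited 1 list of peaks per animal. All 3 samples are microdissected dentate gyri of C57BL/6 mice, adult and 8 weeks old, with 1 library made per animal. They form 1 group of 3 replicates, labelled E24, a name that the labels leave unexplained. The series concerns neuronal activation, but no unstimulated group was analysed here and no treatment is named in the labels, so no comparison between conditions was made.

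Astrocytes are glial cells that take up transmitter, buffer ions and water, and contact both synapses and blood vessels. Gfap encodes an intermediate filament protein of astrocytes that is also made by the radial stem cells of the adult dentate gyrus. Aqp4 encodes the water channel of astrocyte endfeet, and Slc1a2 the transporter that clears most glutamate from the space around synapses. Sox9 encodes a transcription factor of the SOX family that acts in glial specification and in neural stem cells. The samples are whole tissue, in which granule neurons prevail. Fewer cells with an open locus and fewer reads over that locus cannot be told apart, and no peak can be assigned to a cell type.

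Promoter sequences are shown for 2 of the 4 members, Gfap and Slc1a2, from RefSeq's promoter table for the assembly GRCm38.p6. The absence of the other members here does not show that they have no entry. For each start, the table gives sequences of 250 bases before and 50 bases after it. These sequences are shown because they are the reference DNA of starts of 2 of the genes. That assembly is not the build of the peaks, so no peak was placed on them, and their positions must not be set against the mm9 positions given for peaks. The Gfap sequence lies at chr11:102897151-102897450 on the minus strand of GRCm38.p6, at the first base of the gene. The Slc1a2 sequence lies at chr2:102706188-102706487 on the plus strand of GRCm38.p6. Its start is 48.2 kb after the first base of the gene in the same assembly, so it belongs to an internal start and not to the first one. Capitals mark a letter match to a STAT motif in Gfap and matches to the E-box in Slc1a2.
Gfap: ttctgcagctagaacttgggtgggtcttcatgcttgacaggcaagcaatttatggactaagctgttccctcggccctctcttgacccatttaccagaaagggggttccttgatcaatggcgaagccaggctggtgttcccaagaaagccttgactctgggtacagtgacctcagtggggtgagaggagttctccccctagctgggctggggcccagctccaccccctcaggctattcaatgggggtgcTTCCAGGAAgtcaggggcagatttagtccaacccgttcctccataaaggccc
Slc1a2: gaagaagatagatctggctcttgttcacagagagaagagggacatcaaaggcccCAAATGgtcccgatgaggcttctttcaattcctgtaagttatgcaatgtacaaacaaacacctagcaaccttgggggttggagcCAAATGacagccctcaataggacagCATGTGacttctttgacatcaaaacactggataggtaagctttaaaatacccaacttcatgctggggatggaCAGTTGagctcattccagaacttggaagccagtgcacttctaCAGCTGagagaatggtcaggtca

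Motif letters were searched on both strands. The Gfap sequence had 1 match to the STAT letters TTCNNNGAA, which starts 2 bases before the annotated start and which 8.3% of the 32851 promoters in the table also hold. The Slc1a2 sequence had 5 matches to the E-box CANNTG, a motif held by 72.3% of all promoters. Neither sequence held AP-1 letters (TGANTCA, in 7.81% of promoters), the CRE palindrome (TGACGTCA, in 1.79%), SOX letters (ACAANG, in 41.2%), a TATA box (TATAAA, in 13.6%), a GC box (GGGCGG, in 35.7%) or the full palindrome of NFI factors (in 0.0365%). These are descriptions of letters in short windows and not sites of binding.

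Replicates 1, 2 and 3 had 62912, 68699 and 48769 peaks in all. Replicate 3 stood apart as the shortest list with the narrowest peaks, at a median of 353 bp against 504 bp in each of the others. The files hold no read counts, so depth is unknown, and the absence of a peak does not show closed chromatin. The deposited score of a peak is the authors' and has no stated unit, so it was read only as a percentile, the share of peaks of the same list that score lower. With 3 animals of 1 group, an exact sign test cannot go below a two-sided p of 0.25, and no p is given.

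The 4 windows, 560 kb in all, held 25 peaks in replicate 1, 26 in replicate 2 and 12 in replicate 3, a mean of 21.0 ± 7.81 (SD, n = 3). Per Mb this was 44.6, 46.4 and 21.4 peaks, against 25.1, 27.5 and 19.5 over all autosomes of the same animals. The loci were thus 1.78, 1.69 and 1.10 times as dense in peaks as the autosomes, with the ratio above 1 in 3 of 3 animals over all peaks. In the highest-scoring 50% of each list, the ratios were 1.14, 1.69 and 0.734, so replicate 3 was below 1 there. No windows around other genes were compared, so whether other gene loci are as dense was not tested. Peaks covered 2.61%, 3.02% and 0.867% of the windows, against 1.53%, 1.71% and 0.846% of the autosomes. Peaks of the loci were of modest rank in replicates 1 and 3, and at the middle in replicate 2. Above the middle of the list, where 50% of any list lies, were 8 of 25, 13 of 26 and 4 of 12 peaks. Over the 3 animals this was 25 of 63 peaks (39.7%). The 2 peaks in the highest-scoring 10% were the same Sox9 region in replicates 1 and 2.

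Sharing between the animals was low at these loci. Of the 33 regions, 8 (24.2%) had a peak in all 3 animals, against 43.6% of all regions of the series. Regions of 2 animals numbered 11, of which 10 were those of replicates 1 and 2, and 1 was that of replicates 1 and 3. The other 14 (42.4%) were found in 1 animal, against 33.4% over the series, 6 each in replicates 1 and 2 and 2 in replicate 3. With replicate 3 left out, 18 of 31 regions (58.1%) were held by both remaining animals, against 65.2% over the series. The gap to the series was narrower without replicate 3. The share held by all was also unequal between the genes, with 4 of 5 regions at Sox9, 2 of 8 at Aqp4, 2 of 15 at Slc1a2 and 0 of 5 at Gfap.

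**Figure D1:**
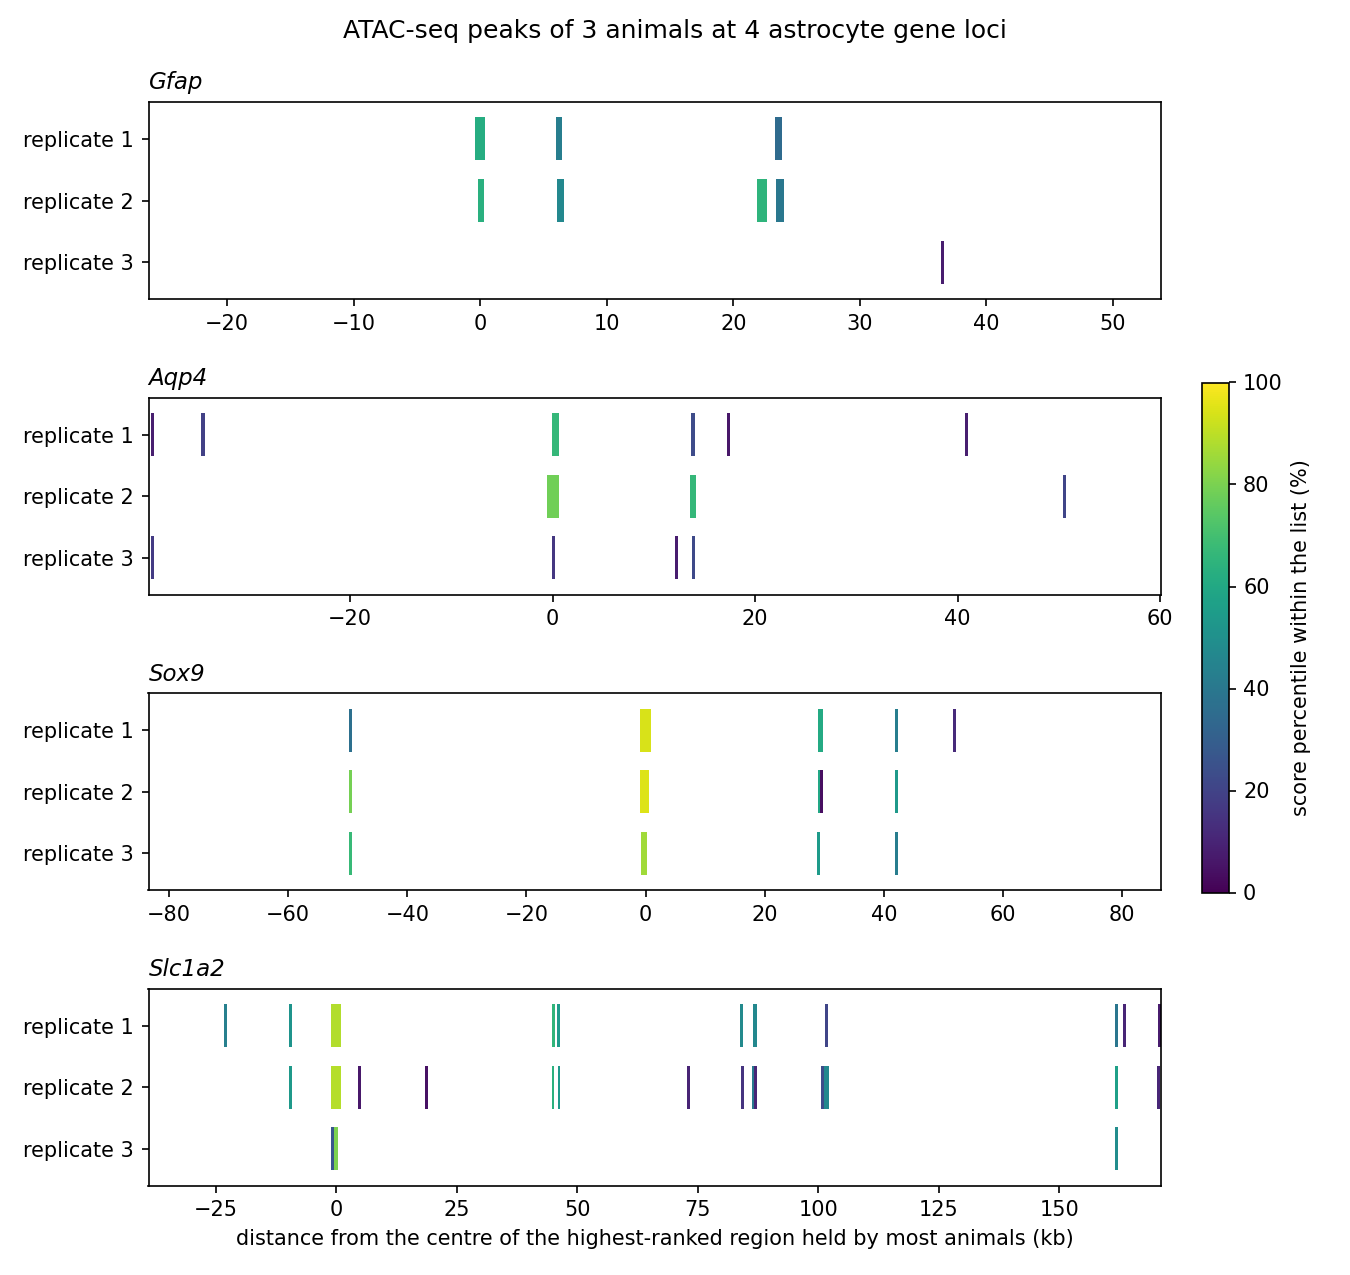
Each bar is a peak in 1 animal, placed by its distance in kb from the centre of the highest-ranked region held by the most animals at its locus, coloured by its score percentile, with each panel spanning the window of 1 gene on its own scale and the narrowest bars widened to stay visible. Sox9 shows 4 aligned peaks in all 3 rows, while the row of replicate 3 holds 1 peak at Gfap and 3 at Slc1a2.

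The Sox9 window, chromosome 11 from 112560000 to 112730000 (170 kb, mm9), held the highest-ranked region of the 4 loci and the most even set. It had 5 peaks in replicate 1, 5 in replicate 2 and 4 in replicate 3, which joined to 5 regions. In RefSeq's gene order the nearest protein-coding neighbours of Sox9 are Gm11677 and Slc39a11. Its strongest region, the second along the chromosome, ran from 112642537 to 112644369 and was also the widest of the window, at 1833 bp. It scored 633 in replicate 1, 809 in replicate 2 and 260.0 in replicate 3. These scores stood at percentiles 94.0, 94.8 and 85.8 of the lists, a mean of 91.6 ± 5.0 (SD, n = 3). The peak was among the broadest of each animal as well, 1773, 1467 and 886 bp wide, at percentiles 98.4, 96.1 and 93.5 of peak width.

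The region 49.5 kb before it, from 112593662 to 112594200, was the one on which the animals differed most at Sox9. It scored 91.5 in replicate 1, 331 in replicate 2 and 142 in replicate 3, at percentiles 36.5, 79.1 and 67.3. Replicate 1 was low and the other two were in the upper part of their lists. Ranked among the 36824 regions held by all 3 animals alone, its percentiles spread over 47.2 points, a range that 4.1% of those regions reach or exceed. The third region, from 112672285 to 112673213, scored 158, 171 and 107, at percentiles 60.7, 59.4 and 54.6. In replicate 2 it was called as a pair of peaks, the second of which scored 53.0. The fourth, from 112685402 to 112685865, scored 103, 147 and 84.7, at percentiles 42.5, 53.9 and 42.0. These regions lay 29.3 and 42.2 kb after the strongest one and kept a like rank in each animal. The fifth, a 269 bp peak of replicate 1 alone, scored 59.4, near the floor of 50 that the lists share.

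The Slc1a2 window, chromosome 2 from 102460000 to 102670000 (210 kb), was the longest and held the most regions, 15, yet only 2 of them in all 3 animals. It had 11 peaks in replicate 1, 14 in replicate 2 and 3 in replicate 3. Its relative peak density was 2.09, 2.43 and 0.734 times that of the autosomes, so replicate 3 fell below 1 where the other two were at more than 2. The neighbours of Slc1a2 in RefSeq's gene order are Pamr1 and Cd44, and no peak was assigned to any of the 3 genes. The strongest region, from 102497835 to 102500024, was 2190 bp wide. Among regions held by all 3 animals, 2.89% exceeded 2 kb. It scored 435 in replicate 1, 529 in replicate 2 and 208 in replicate 3, at percentiles 88.3, 88.8 and 80.2. Replicates 1 and 2 had 1 peak of 2157 and 2162 bp there, while replicate 3 had 1 of 948 bp beside 1 of 345 bp that scored 67.6.

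The other region of all 3 animals lay 162 kb away, near the far end of the window, from 102660467 to 102661068. It scored 96.3, 157 and 94.9, at percentiles 39.1, 56.5 and 48.7. Between these lay a stretch of 59.4 kb without a peak in any animal, from 102601107 to 102660466. Along the rest of the window, 7 regions were held by replicates 1 and 2 and missing from replicate 3. The highest of them, from 102543605 to 102544192, had scores of 180.5 in replicate 1 and 193 in replicate 2, at percentiles 65.4 and 63.7. Its neighbour from 102544762 to 102545436 scored 135 and 147, at percentiles 54.5 and 53.9, and the one from 102489176 to 102489719 scored 126 and 146, at percentiles 51.7 and 53.6. These 3 stood above the middle of both lists and at nearly equal rank. The other 4 had mean percentiles from 9.07 to 43.7. The region from 102582866 to 102583409 differed most between the animals that held it, at percentile 47.4 in replicate 1 and 15.1 in replicate 2.

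The Aqp4 window, chromosome 18 from 15510000 to 15610000 (100 kb), had 6 peaks in replicate 1, 3 in replicate 2 and 4 in replicate 3. Its 8 regions were mostly weak, and 5 of them belonged to 1 animal. Chst9 and Kctd1 are the nearest protein-coding genes to Aqp4 in RefSeq's order. The strongest region, from 15549319 to 15550514 (1196 bp), scored 187 in replicate 1, 322.5 in replicate 2 and 58.9 in replicate 3. These scores were at percentiles 66.6, 78.5 and 15.7, a mean of 53.6 ± 33.4 (SD, n = 3). Replicate 3 was far below the others and its peak was 265 bp wide, against 695 and 1196 bp. Ranked among the regions held by all 3 animals, the region was at percentile 45.2 in replicate 1, 60.3 in replicate 2 and 7.99 in replicate 3. A range of 50 points or more was found in 1 of the 8 shared regions of the loci, this one, and in 2.99% of all shared regions.

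The other Aqp4 region of all 3 animals, from 15563496 to 15564111, scored 71.0, 211 and 63.2, at percentiles 22.7, 66.7 and 21.9. Replicate 2 was high there and replicates 1 and 3 were alike. Both shared regions thus had their top rank in replicate 2. Replicate 2 at the same time had the fewest peaks in the window, and its relative density, 1.09, was below the 2.39 of replicate 1 and the 2.05 of replicate 3. The regions of 1 animal had percentiles from 6.01 to 20.7, and the highest, from 15600291 to 15600623 in replicate 2, scored 70.7. A region at the edge of the window, from 15510245 to 15510517, was the only one of the 33 held by replicates 1 and 3 without replicate 2, with scores of 56.6 and 60.0.

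The Gfap window, chromosome 11 from 102710000 to 102790000 (80 kb), had no region held by all 3 animals. There were 3 peaks in replicate 1, 4 in replicate 2 and 1 in replicate 3. RefSeq's order places Fam187a and Ccdc103 on one side of Gfap and Kif18b and C1ql1 on the other. The first region, from 102735825 to 102736594, had scores of 164 in replicate 1 and 190.4 in replicate 2, at percentiles 62.0 and 63.3. The region from 102742197 to 102742814 scored 103 and 123, at percentiles 42.5 and 46.6. The third that both held, from 102759538 to 102760242, scored 88.4 and 104, at percentiles 34.7 and 39.5. In each of the 3, replicates 1 and 2 were within 5 points of rank of each other and replicate 3 had no peak. The single peak of replicate 3, from 102772617 to 102772838, was 222 bp wide with a score of 54.15, at percentile 7.84 of that list.

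The widest Gfap region belonged to replicate 2 alone. It ran from 102758102 to 102758895 (794 bp), 642 bp before the third shared pair, and scored 200.4, at percentile 64.9. Of the 13762 regions found in replicate 2 alone, 0.56% (77) ranked as high, and the median of these regions was percentile 17.6. No other region of a single animal at the 4 loci came near it. Of the 14, 12 had percentiles from 4.65 to 23.2. The remaining one, the first of the Slc1a2 window (102475710 to 102476182), scored 105 in replicate 1 at percentile 43.2, a rank reached by 6.71% of the 8988 regions of replicate 1 alone.

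**Figure D2:**
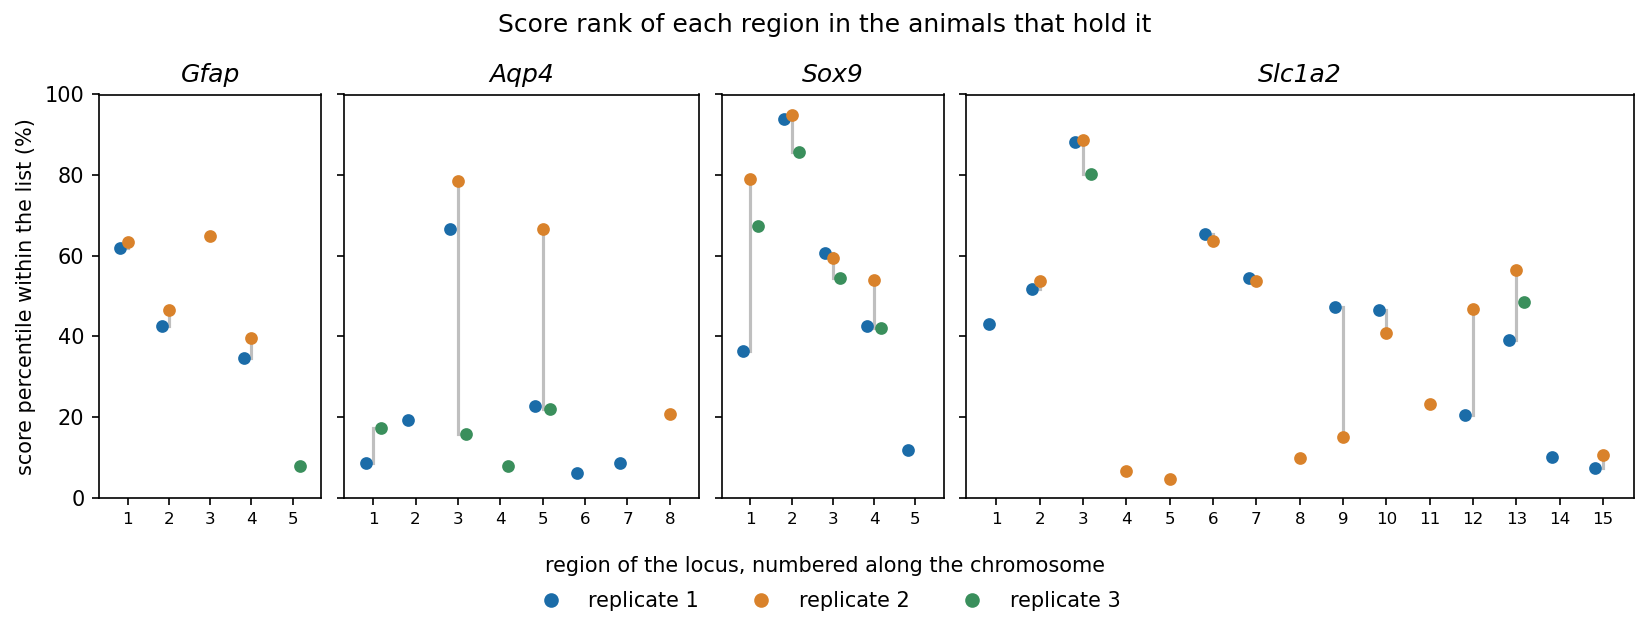
Score percentile within the list (vertical axis, %) of each region, numbered along the chromosome, with 1 point per animal that holds it and a grey line joining the lowest and highest. The Sox9 region 2 and the Slc1a2 region 3 lie highest in all 3 animals, while the Aqp4 region 3 runs from 78.5 in replicate 2 to 15.7 in replicate 3.

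Ordered by the strongest region that most animals held, Sox9 came first with a mean percentile of 91.6 ± 5.0, followed by Slc1a2 with 85.8 ± 4.8 and Aqp4 with 53.6 ± 33.4 (SD, n = 3 each). The strongest Gfap region that more than 1 animal held had a mean of 62.7 over replicates 1 and 2, with no value in replicate 3. Sox9 and Slc1a2 differed by about as much as each varied between animals. Within each animal, however, the Sox9 region ranked higher, by 5.70, 6.03 and 5.55 points, a mean of 5.76 ± 0.24 (SD, n = 3). Ranked among the regions held by all 3 animals alone, it was higher by 9.73, 11.2 and 7.30 points. The mean there was 9.42 ± 1.99 (SD, n = 3), a wider spread. The Aqp4 region ranked above the Gfap region in replicates 1 and 2, at 66.6 and 78.5 against 62.0 and 63.3. In replicate 3 the Aqp4 region was at 15.7 and the Gfap region had no peak, so these means cover different animals.

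Peak density relative to the autosomes of the same animal was evenest at Sox9, with 1.17, 1.07 and 1.21 in replicates 1, 2 and 3, a mean of 1.15 ± 0.07 (SD, n = 3). Aqp4 averaged 1.85 ± 0.67, Slc1a2 1.75 ± 0.90 and Gfap 1.32 ± 0.61. At Gfap the values were 1.49, 1.82 and 0.642. Sox9 and Aqp4 were thus above the autosomal level in 3 of 3 animals, and Gfap and Slc1a2 in 2 of 3, the exception being replicate 3 at both. The ratios depended on the setting, in both directions. Sox9 averaged 0.77 in windows widened by 25% of their length at both ends, and 1.64 in windows narrowed likewise. In the highest-scoring 50% of each list, Sox9 averaged 1.49 and Aqp4 0.75. Gfap averaged 2.21 ± 1.94 in narrowed windows. Chromosome 18, which holds Aqp4, is dense in peaks as a whole, and against its own chromosome Aqp4 stood at 1.84, 0.841 and 1.48. Against theirs, Sox9 stood at 1.24 ± 0.12, Slc1a2 at 1.79 ± 0.90 and Gfap at 1.41 ± 0.61.

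**Figure D3:**
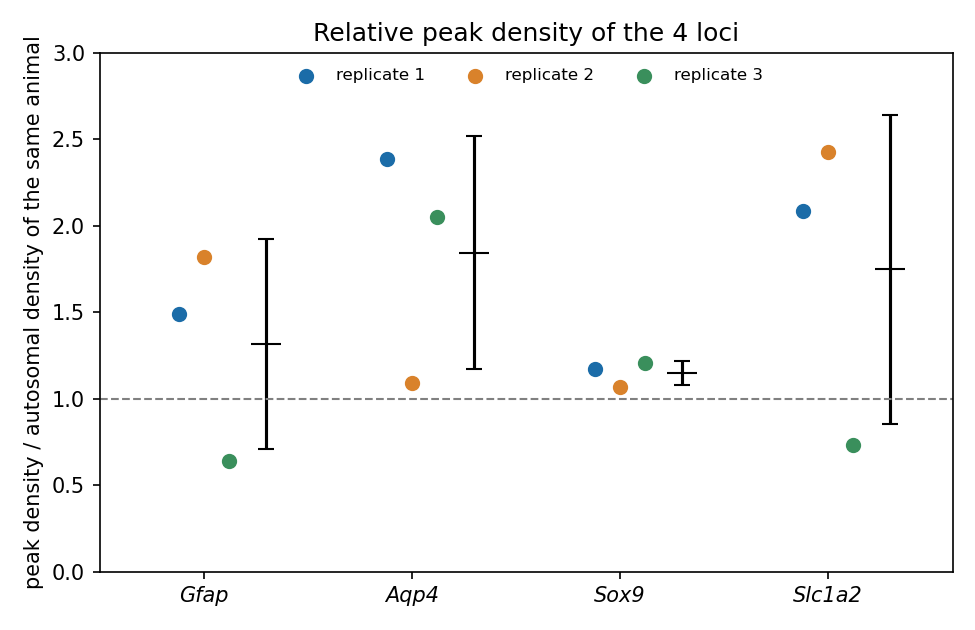
Peak density of each window divided by the density over all autosomes of the same animal (vertical axis, no unit), with 1 point per animal and the mean ± SD in black; the dashed line at 1 is the autosomal level. Replicate 3 lies below the line at Gfap (0.642) and Slc1a2 (0.734) and above it at Aqp4 and Sox9.

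Windows of the same lengths, laid end to end along the autosomes, give the background for these counts. The Gfap window had 5 regions, against a median of 2 in 80 kb windows, and 20.2% of those windows had 5 or more. It had 0 regions of all 3 animals, as did 38.8% of windows of that length. The Slc1a2 window had 15 regions, against a median of 7 in windows of 210 kb, and 7.63% had as many. Its 2 regions of all 3 animals were below the median of 3. Aqp4 had 8 regions, against a median of 3, a number reached by 8.37% of 100 kb windows, and its 2 shared regions were reached by 40.7%. Sox9 had 5 regions, at the median of 5 in 170 kb windows, and 4 shared regions against a median of 2, a number that 27.7% of windows reached. The region counts of Slc1a2 and Aqp4 depended on the lists used: with lists of equal length they were 9 and 4, and without replicate 1 Aqp4 had 5.

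Replicate 3 was then set against the other two, given what they held. Replicates 1 and 2 shared 18 regions at the 4 loci, and replicate 3 had 8 of them (44.4%), against 71.5% of all regions that replicates 1 and 2 shared. By gene, replicate 3 had 4 of 4 at Sox9, 2 of 2 at Aqp4, 2 of 9 at Slc1a2 and 0 of 3 at Gfap. Since weak regions were missing from replicate 3 more often everywhere, all regions of replicates 1 and 2 were divided into 10 equal classes by their mean percentile. In the classes of the 3 Gfap regions, replicate 3 held 47.7%, 59.8% and 81.3% of regions. In the classes of the 9 Slc1a2 regions it held 27.5% to 99.8%, with a mean of 61.8%, against the 22.2% seen. The classes of the 4 Sox9 and 2 Aqp4 regions had means of 77.9% and 75.8%, so most such regions were held everywhere. Averaged in this way over the 18 regions, the classes gave 67.1%. With the 48769 highest-scoring peaks of every list, so that all had the same length, replicate 3 held 8 of 15 (53.3%) at the loci, against 82.2% over the series, with 0 of 3 at Gfap and 2 of 6 at Slc1a2. The regions are few and share their libraries, so these shares are given without a test, and which of tissue, cell makeup or depth moved with them was not tested.

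**Figure D4:**
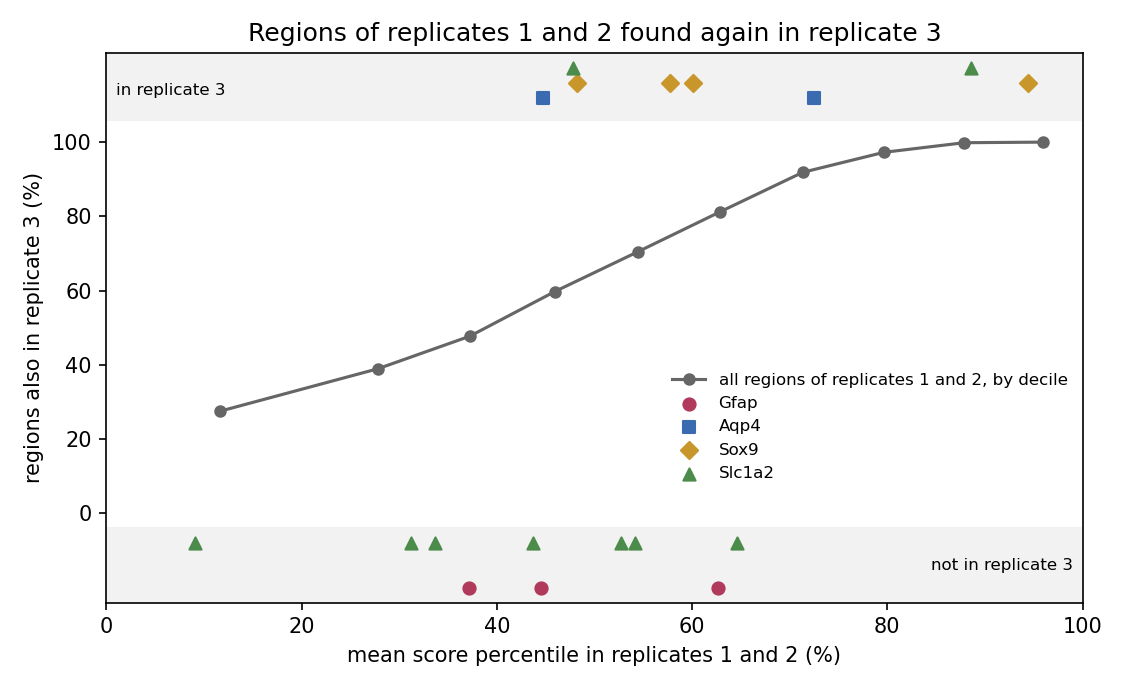
Share of regions held by replicates 1 and 2 that replicate 3 also held (vertical axis, %), against their mean score percentile in replicates 1 and 2, for all such regions in 10 equal classes (grey line); symbols in the shaded bands mark the 18 regions of the 4 loci by whether replicate 3 held them. All 4 Sox9 and 2 Aqp4 regions are in the upper band, and all 3 Gfap and 7 of 9 Slc1a2 regions are in the lower one.

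The spread of rank between animals differed among the 8 regions that all held. Ranked among all regions held by the 3 animals, the strongest regions of Slc1a2 and Sox9 had ranges of 6.18 and 9.18 points, against a median of 16.4 over all 36824. The Sox9 regions 3 and 4, counted along the chromosome, had 10.2 and 9.83 points and the second shared Slc1a2 region had 19.2. The remaining 3, both of Aqp4 and the first of Sox9, had ranges of 34.6 to 52.3 points and all had their highest rank in replicate 2. The 8 shared regions had a median width of 772.5 bp, against 692 bp for all shared regions, and the other 25 one of 460.0 bp. A region spans all the peaks joined in it, so regions of more animals tend to be wider by construction.

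No peak crossed the edge of a window. The first Aqp4 region lay 0.2 kb inside its edge, and 3.2 kb outside it was a region of all 3 animals with scores of 66.2, 64.4 and 93.4. On the far side, 13.5 kb outside, a stronger region of all 3 animals, from 15623503 to 15624395, scored 347, 455 and 263. At Slc1a2 the last region lay 0.2 kb inside and the next, a peak of replicate 1 alone, 8.4 kb outside. At Sox9 and Gfap, the nearest regions outside were 57.7 and 17.9 kb from the edge on the one side and 77.4 and 74.4 kb on the other.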

How the data were processed

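Per the labels, ATAC-seq libraries were made from the microdissected dentate gyrus of single animals. Per the submitters' processing notes, Bowtie2 and the build mm9 were used. The authors deposited 1 peak list per sample, with MACS peak names, positions and a score of no stated unit. No source used here gives versions, MACS settings, duplicate removal or any Tn5 shift. Depth is unknown, so no counting interval is given, and 3 animals limit the precision.

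Starts were converted to count from 1. Peaks overlapping by 1 bp were joined. Score percentiles were computed within each list, using an animal's highest peak in a region. Autosomal density was peaks divided by the length between the outermost peaks of each autosome. The steps were tested on simulated lists. No mm9 annotation was used, so no gene was assigned to a peak, and the other cell type markers considered were not examined. Gene order and promoter sequences come from RefSeq (GRCm38.p6).

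The members, tests and lists were chosen with earlier results of these data known. Regions given in full are, per locus, the 3 highest of those held by all animals, the highest of the others, and the widest; others were singled out with their values in view. The classes by percentile, the windows laid end to end and the ranks among shared regions were added after seeing the data. Alternatives were the highest-scoring 50% of each list, lists of equal length, other joining rules, windows narrowed or widened by 25% of their length at both ends, the mean over the peaks of a region, and leaving out each replicate. Python 3.11.15, numpy 2.4.6, pandas 2.3.3 and matplotlib 3.10.9 were used.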

Additional observations from a re-analysis of the deposited data

How the results depend on the processing

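Over the 4 loci together, 36 alternative values were computed for 5 results, and 8 moved by more than the spread between animals or, for counts, by more than 1.5 times. The highest-scoring 50% of each list gave 8.33 peaks per animal against 21.0, 13 regions against 33 and 3 regions of all animals against 8, which fewer peaks bring by construction. It also gave a median percentile of 34.1 against 46.1. Percentiles were computed again within the shortened lists, so these values are on different scales and show no drop in rank. Lists of equal length, ranked again in the same way, gave a median percentile of 39.0. Narrowed windows gave 13.0 peaks per animal and 5 regions of all animals. Leaving out 1 replicate gave 8 to 18 regions held by all remaining animals, the 18 being without replicate 3. Without a replicate, the mean number of peaks was 18.5 to 25.5, regions 27 to 31, relative density 1.40 to 1.73 and median percentile 42.3 to 48.1. A mean of 3 cannot move by more than its SD when 1 is left out, so these means say nothing about stability. By locus, 31 of 144 values moved. Gfap had 0 regions of all 3 animals under every rule that kept them all. The same count moved at the other loci. Slc1a2 had 0 in narrowed windows, against 2. Where joined peaks had to overlap by 50% of both, Slc1a2 and Aqp4 had 1 each, against 2. Aqp4 had 4 in widened windows. In the highest-scoring 50%, Aqp4 had 0, Slc1a2 1, and Sox9 2 against 4. The relative density of Sox9 was 0.77 in widened windows, below the autosomal level, and that of Gfap and Aqp4 was 0.94 and 0.75 in the highest-scoring 50%. Other values moved upward, with Sox9 at 1.49 in the highest-scoring 50%, and Sox9 at 1.64 and Gfap at 2.21 in narrowed windows. No paired analysis was possible because all samples form 1 group. The scores' dependence on depth could not be examined.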
